A study of Mus musculus with 12 samples.

Results

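Enzymes that immune cells use to break down amino acids or to divert a metabolite, namely Ido1, Kynu, Il4i1, Nos2, Arg1 and Acod1, were followed across tumors and cultured cells of the mouse ovarian cancer line HM1. They were picked by gene name, with earlier results of these data known, and all 6 of 6 names were found in every library, among 55878 genes listed for tumors and 56061 for cultured cells. Messenger RNA was measured by RNA sequencing in 12 libraries, 3 in each of 4 groups. The groups were HM1 cells in culture with a control hairpin (shControl), HM1 cells in culture with a hairpin against St3gal3 (shST3GAL3), and tumors of each line, here called control and knockdown tumors. The labels give the genotype as wild type for the control groups and as ST3GAL3 knockdown for the others. They give no drug or other treatment. Mouse strain, age, tumor site, time of collection and whether a line is 1 clone are not given there, nor is whether replicates were taken from different mice or dishes. The p-values thus reflect the variation among the 3 libraries of a group, and this could be technical. St3gal3 encodes a sialyltransferase, and the series title sets the comparison in tumor immunity.

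Ido1 opens the kynurenine route by oxidizing tryptophan, an amino acid that T cells need, and Kynu cleaves kynurenine and its hydroxylated form further down that route. Il4i1 is a secreted oxidase of phenylalanine, tyrosine and tryptophan. Nos2, the inducible nitric oxide synthase, and Arg1, which makes ornithine and urea, both consume arginine, and Acod1 makes itaconate from the citric acid cycle intermediate cis-aconitate. In mice Ido1, Nos2 and Acod1 are known as genes induced by interferon-gamma or microbial products, and Arg1 and Il4i1 as genes of myeloid cells induced by IL-4 or suppressive signals.

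St3gal3 was lower in every knockdown tumor (7.28, 5.87 and 5.76 TPM) than in every control tumor (14.00, 15.39 and 15.36 TPM), a log2 change of -1.13 with an SE of 0.110 (limma adjusted p = 0.00954), and in culture it fell by 2.32 on the log2 scale (limma adjusted p = 0.00689). TPM is a share of a library's transcripts scaled to gene length, so levels of different genes can be set side by side. Depth is unknown from TPM. Each tumor library had 14046 to 14534 genes at 1 TPM or more, and each culture library 12629 to 13145. Knockdown tumors 1 and 3 stood apart by transcripts of skeletal muscle: 12 listed muscle markers summed to 98.3 and 77.0 TPM there, against 15.3 TPM in knockdown tumor 2 and 3.44 to 16.3 TPM in the control tumors. Of the epithelial and ovarian markers, Krt8, Krt18 and Krt19 carried most of the summed TPM, which was 3231 to 3437 in control and 2565 to 2831 in knockdown tumors, lower without overlap. Of 6 of these markers tested by limma 5 had negative changes, 4 were lower at an unadjusted p under 0.05 and 0 were called. Over all genes tested in tumors, 18.7% had an unadjusted limma p under 0.05, in either direction. Muc16 was listed at 0 in all 6 tumors, and Epcam, Krt7 and Pax8 were under a mean of 1 TPM in both tumor groups.

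Promoter sequences were at hand for Acod1 and Il4i1, 2 of the 6 enzymes, and are shown because these genes lay on opposite sides of the comparison in tumors described further on. Each runs from 250 bases before to 50 bases after the annotated start, from RefSeq on GRCm38.p6, 5′ to 3′ on the plus strand. Acod1 covers chr14:103046762-103047061 and Il4i1 chr7:44836038-44836337. Capitals mark matches to 7 motifs searched on both strands.
Acod1: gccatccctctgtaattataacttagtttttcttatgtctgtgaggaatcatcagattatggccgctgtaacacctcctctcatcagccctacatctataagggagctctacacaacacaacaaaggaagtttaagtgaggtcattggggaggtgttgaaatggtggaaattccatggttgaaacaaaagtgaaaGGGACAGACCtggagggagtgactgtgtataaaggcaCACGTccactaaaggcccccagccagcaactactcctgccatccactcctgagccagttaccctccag
Il4i1: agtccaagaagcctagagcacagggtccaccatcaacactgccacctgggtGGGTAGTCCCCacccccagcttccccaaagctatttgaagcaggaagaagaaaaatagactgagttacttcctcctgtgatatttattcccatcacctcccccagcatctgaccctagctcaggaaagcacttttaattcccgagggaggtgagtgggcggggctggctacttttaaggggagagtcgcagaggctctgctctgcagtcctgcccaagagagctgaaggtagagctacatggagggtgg
In Acod1 the capitals are a kappaB match (GGG, any 5 bases, CC), which begins 55 bases before the start, and the core of a hypoxia response element (ACGTG, here on the minus strand), 18 bases before it. In Il4i1 they are kappaB matches that overlap each other and both strands, 199 and 198 bases before the start. The kappaB letters occur in 50.8% of 32851 promoters of this length and the hypoxia core in 19.6%. The other motifs had no match in either window: the gamma-activated site TTCNNNGAA (8.30% of promoters), the STAT6 site (TTC, any 4 bases, GAA; 6.95%), the interferon-stimulated response element (GAAA, any 2 bases, GAAA; 3.44%), the xenobiotic response element core GCGTG (32.4%) and the C/EBP site TTGCNNAA (10.8%). Matches describe letters in these windows and show no binding.

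In tumors, transcripts of Ido1, Nos2 and Acod1 were higher in all 3 knockdown libraries than in all 3 control libraries, Il4i1 was lower in all 3, and Arg1 and Kynu overlapped between the groups. Across the transcriptome, 9.81% of 14915 tested genes had knockdown libraries all above the controls and 14.9% had them all below. By limma on log2(TPM + 1), with Benjamini-Hochberg adjustment over those genes and a threshold of 0.05, Acod1 was the 1 enzyme called. It was called as higher, Ido1, Nos2, Arg1 and Il4i1 were tested and not called, and Kynu was under the minimum level of a mean of 1 TPM in some group and was not tested. Over all genes 1.51% were called, and 1.07% were called as higher in knockdown tumors. An unadjusted limma p under 0.05, in either direction, was reached by 18.7% of them. A tumor library mixes cancer and host cells, so fewer cells of a type and less RNA per cell cannot be told apart.

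**Figure D1:**
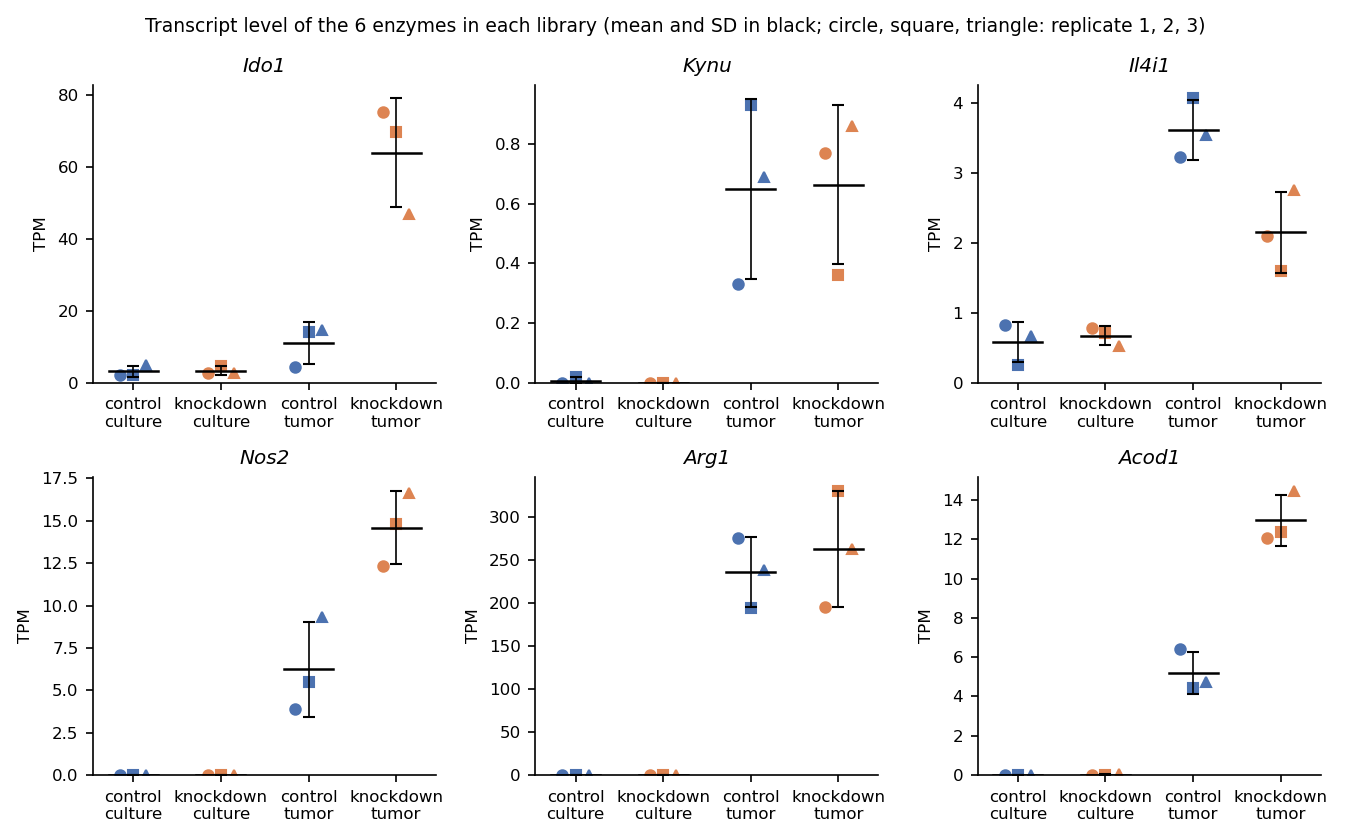
TPM of each enzyme in each of the 12 libraries, 3 per group, on linear axes that start at 0 and differ between panels. Blue is control and orange knockdown, circles, squares and triangles are replicates 1, 2 and 3, and black lines are means with SD. Knockdown tumors lie above control tumors for Ido1, Nos2 and Acod1 and below them for Il4i1.

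Within tumors the order of mean level was the same in both groups: Arg1, Ido1, Nos2, Acod1, Il4i1 and Kynu, from high to low. Arg1 stood far above the rest, at rank 540 of 14915 tested genes in control tumors and 479 in knockdown tumors, and its range did not overlap that of any other enzyme. In control tumors the ranges of Ido1 and Nos2 overlapped, as did those of Nos2 and Acod1. In knockdown tumors only Nos2 and Acod1 still overlapped as neighbours. Ido1 moved from rank 8323 to 2104, Nos2 from 10220 to 7201 and Acod1 from 10715 to 7647, while Il4i1 moved from 11670 to 12757.

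Ido1 (ENSMUSG00000031551) had 4.45, 14.08 and 14.74 TPM in the control tumors 1, 2 and 3, and 75.19, 69.67 and 46.80 TPM in the knockdown tumors 1, 2 and 3. The lowest knockdown tumor was well above the highest control tumor, and control tumor 1 was low beside the other controls. The means were 11.1 ± 5.76 and 63.9 ± 15.1 TPM (SD, n = 3 each), a ratio of 5.76. This was the widest change among the 6 enzymes, with a log2 change of 2.55 (SE 0.481, 95% interval 1.32 to 3.77), but it missed the threshold (limma adjusted p = 0.0881). Of 14 alternative settings 3 called it: without control tumor 1 (log2 change 2.05, limma adjusted p = 0.0218), with array weights (2.36, 0.0381) and with all 4 groups in 1 fit (limma adjusted p = 0.00873). In 11 of 14 it stayed uncalled, with limma adjusted p up to 0.286 when a single tumor was left out. The fit of all 4 groups counts the culture libraries towards the spread, so its call of Ido1 is no separate evidence on tumors.

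Cultured cells held Ido1 at a low level in both lines, with 2.27, 2.25 and 4.89 TPM in control cultures and 2.81, 4.72 and 2.58 TPM in knockdown cultures. These groups overlapped and the log2 change was 0.11 (95% interval -0.58 to 0.79, limma adjusted p = 1.00). The change in tumors exceeded that in culture by 2.44 on the log2 scale (SE 0.591), which was not called either (limma adjusted p = 0.119). Ido1 was the 1 enzyme of the 6 that reached a mean of 1 TPM in cultured cells. There 0 of 1 tested enzymes were called and 0 of 1 had an unadjusted p under 0.05. Of 13492 genes in culture, 0.0296% were called and 3.42% had an unadjusted limma p under 0.05.

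Ido2, the neighbouring paralog of Ido1 on the same strand, with a lower affinity for tryptophan, was much less abundant in tumors. It had 0.94, 0.97 and 1.45 TPM in the control tumors and 3.65, 2.75 and 2.54 TPM in the knockdown tumors (log2 change 0.91, SE 0.172, limma adjusted p = 0.0579). Ido1 exceeded Ido2 9.81 ± 4.90-fold in control tumors and 21.5 ± 3.53-fold in knockdown tumors (SD, n = 3 each).

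Kynu (ENSMUSG00000026866) was near the limit of these tables. Its levels were 0.33, 0.93 and 0.69 TPM in the control tumors and 0.77, 0.36 and 0.86 TPM in the knockdown tumors. The groups overlapped fully, and the means of 0.650 ± 0.302 and 0.663 ± 0.267 TPM (SD, n = 3 each) gave a ratio of 1.02. In culture it was listed at 0.02 TPM in control culture 2 and at 0 in the other 5 libraries.

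Of 21 listed genes that transport tryptophan, degrade it or load it on tRNA, 13 were tested in tumors and 1 was called. The list's median log2 change was 0.07, against -0.05 for all genes tested. The called gene was Wars, the tryptophanyl-tRNA synthetase and a known interferon-gamma target, with 32.78, 37.75 and 40.54 TPM in the control tumors and 64.50, 60.51 and 51.29 TPM in the knockdown tumors (log2 change 0.65, limma adjusted p = 0.0466). This call was near the threshold and was lost in 5 of 6 omissions of a single tumor, each except that of knockdown tumor 3, with adjusted p up to 0.169. Afmid, which turns the product of Ido1 into kynurenine, was lower without overlap, at 23.23, 23.95 and 23.06 TPM against 17.86, 17.96 and 17.49 TPM, and lay at the threshold without passing it (log2 change -0.38, limma adjusted p = 0.05002). Kmo, the hydroxylase that feeds Kynu, had 0.98, 2.81 and 2.28 TPM against 2.52, 1.39 and 2.39 TPM, and overlapped (log2 change 0.07, limma adjusted p = 0.910). The tryptophan carrier Slc7a5 and its partner Slc3a2 showed log2 changes of -0.26 and -0.21 and were not called (limma adjusted p = 0.268 and 0.269). Ido1 had the largest log2 change of the 13 genes tested.

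Kynurenine and the indole products of Il4i1 are known ligands of the aryl hydrocarbon receptor, so its genes were read as well. Of 10 listed, 7 were tested by limma, 0 were called and the median log2 change was 0.05. The 1 with an unadjusted p under 0.05 was Gpr35, a separate cell-surface receptor that the list also held (log2 change 0.43, limma adjusted p = 0.139). Ahr itself had 16.21, 13.76 and 16.12 TPM in the control tumors and 12.32, 11.76 and 14.64 TPM in the knockdown tumors, which overlapped (log2 change -0.24, limma adjusted p = 0.311). The receptor's target Tiparp had a log2 change of 0.05 (limma adjusted p = 0.794) and its target Cyp1b1 one of -0.15 (limma adjusted p = 0.766). Cyp1a1, a classical target named after its values were seen, was at 18.2 ± 2.73 TPM in control cultures and 16.5 ± 3.74 TPM in knockdown cultures (SD, n = 3 each), but reached at most 0.07 TPM in any tumor.

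Il4i1 (ENSMUSG00000074141) was the 1 enzyme of the set that was lower in knockdown tumors. It had 3.23, 4.07 and 3.54 TPM in the control tumors and 2.10, 1.60 and 2.75 TPM in the knockdown tumors. All 3 knockdown tumors were below all 3 controls, though by little for knockdown tumor 3. The means were 3.61 ± 0.425 and 2.15 ± 0.577 TPM (SD, n = 3 each), and the log2 change of -0.56 (SE 0.167, 95% interval -0.95 to -0.17) was not called (limma adjusted p = 0.146). In culture it was at 0.26 to 0.82 TPM in control and 0.52 to 0.78 TPM in knockdown libraries. The test of the difference between tissues gave -0.65 (limma adjusted p = 0.330).

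Il4i1 overlaps other genes in the GENCODE M21 annotation: Nup62 on the same strand, and Atf5 and Tbc1d17 on the opposite one. Whether strand was used in counting the sources used here do not give, so its level is uncertain. Nup62, a nuclear pore gene, had 48.70, 45.95 and 45.52 TPM in the control tumors and 43.94, 41.23 and 41.36 TPM in the knockdown tumors (log2 change -0.14, limma adjusted p = 0.291). Atf5 and Tbc1d17 showed log2 changes of -0.23 and -0.38, neither called (limma adjusted p = 0.350 and 0.256). All 3 are more abundant than Il4i1, all 3 had lower means in knockdown tumors, and their part in its value was not tested. The other 5 enzymes overlap no annotated gene. Of 12 listed genes of aromatic amino acid oxidation, 5 were tested by limma, 0 were called and 1 had an unadjusted p under 0.05, namely Il4i1. The median log2 change of the list was -0.12.

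Nos2 (ENSMUSG00000020826) was listed at 0 in all 6 culture libraries and was present in every tumor. It had 3.87, 5.51 and 9.33 TPM in the control tumors and 12.34, 14.81 and 16.65 TPM in the knockdown tumors. The groups did not overlap, and control tumor 3 was the control nearest to the knockdown tumors. The means were 6.24 ± 2.80 and 14.6 ± 2.16 TPM (SD, n = 3 each), a ratio of 2.34, and the log2 change was 1.17 (SE 0.275, 95% interval 0.51 to 1.83, limma adjusted p = 0.102). It was not called here. Of 14 alternative settings 2 called it: without control tumor 3 (log2 change 1.46, limma adjusted p = 0.0313) and with all 4 groups in 1 fit (limma adjusted p = 0.0125). In 12 of 14 it stayed uncalled, with limma adjusted p up to 0.283 when a single tumor was left out. The fit of all 4 groups counts the culture libraries, all at 0, towards the spread, so its call is no separate evidence on tumors. With culture at 0, the difference from culture repeats the tumor change, and it was not called (limma adjusted p = 0.144).

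Arg1 (ENSMUSG00000019987) was the most abundant of the 6 enzymes in tumors and nearly absent from culture, where the highest library had 0.12 TPM. It had 275.62, 193.78 and 237.73 TPM in the control tumors and 195.40, 329.75 and 262.93 TPM in the knockdown tumors. High and low libraries occurred in both groups, and the ranges overlapped, though knockdown tumor 2 lay above every control tumor. The means were 236 ± 41.0 and 263 ± 67.2 TPM (SD, n = 3 each), and the log2 change was 0.14 (SE 0.221, not called, limma adjusted p = 0.757). Its 95% interval, -0.41 to 0.68, leaves room for a modest change in either direction, and the sign turned without knockdown tumor 2 (log2 change -0.04). Arg1 is also a liver enzyme, and the 7 hepatocyte markers listed summed to at most 0.49 TPM in any tumor, with Ttr, Serpina1a and Fgb at 0.

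Because Nos2 and Arg1 draw on the same amino acid, their ratio was formed within each tumor. Arg1 exceeded Nos2 25.5 to 71.2-fold in control tumors (mean 44.0 ± 24.1, SD, n = 3) and 15.8 to 22.3-fold in knockdown tumors (mean 18.0 ± 3.73, SD, n = 3). Arg1 transcripts therefore remained in excess in each of the 6 tumors. The ranges did not overlap, and leaving out any 1 tumor moved the log2 difference between -1.50 and -0.76. No test was made of this ratio.

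Of 16 listed genes of arginine and nitric oxide metabolism, 13 were tested by limma, 0 were called and 1 had an unadjusted p under 0.05, namely Nos2. The list's median log2 change was 0.13. Ass1, which rebuilds arginine from citrulline, had 13.75, 20.49 and 21.82 TPM in the control tumors and 19.94, 18.04 and 37.15 TPM in the knockdown tumors (log2 change 0.36, limma adjusted p = 0.571). Only knockdown tumor 3 stood above the controls. Arg2, the mitochondrial arginase, Slc7a2, an arginine carrier of macrophages, and Nos3, the endothelial synthase, showed log2 changes of 0.13, 0.13 and -0.32 and were not called (limma adjusted p = 0.790, 0.804 and 0.331). The arginine carrier Slc7a1 had a log2 change of -0.28 (limma adjusted p = 0.269).

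Nitric oxide synthases need tetrahydrobiopterin, and of 8 listed genes of that cofactor 7 were tested by limma. All 7 had positive log2 changes, with a median of 0.15. None was called, and 2 had an unadjusted p under 0.05. Gch1, its rate-limiting enzyme, had 14.82, 13.26 and 14.94 TPM in the control tumors and 18.16, 17.34 and 17.75 TPM in the knockdown tumors. These groups did not overlap, but the change was small (log2 change 0.29, limma adjusted p = 0.132). Downstream of Arg1, 14 of 15 listed genes of ornithine, polyamine and proline metabolism were tested by limma, with 0 called. At an unadjusted p under 0.05, 1 was higher and 5 were lower, and the median log2 change was -0.07. Over all genes tested in tumors, 18.7% had an unadjusted limma p under 0.05, in either direction. Odc1, which turns ornithine into putrescine, had 182.78, 164.73 and 161.54 TPM in the control tumors and 132.91, 122.93 and 135.17 TPM in the knockdown tumors (log2 change -0.38, limma adjusted p = 0.0579). Oat, which sends ornithine towards proline and glutamate, had a log2 change of -0.17 (limma adjusted p = 0.195).

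Acod1 (ENSMUSG00000022126) rose in knockdown tumors. It had 6.40, 4.42 and 4.75 TPM in the control tumors and 12.08, 12.40 and 14.47 TPM in the knockdown tumors. The groups were tight and well apart, with means of 5.19 ± 1.06 and 13.0 ± 1.30 TPM (SD, n = 3 each) and a ratio of 2.5. The log2 change was 1.19 (SE 0.143, 95% interval 0.85 to 1.52, limma adjusted p = 0.0152). That SE, on the scale of log2(TPM + 1), was the smallest of the 5 enzymes tested. The call held in 10 of 14 alternative settings. It was lost without knockdown tumor 1 (log2 change 1.23, limma adjusted p = 0.0624) and without knockdown tumor 2 (1.21, 0.0626). It was also lost with the replicate block and without knockdown tumors 1 and 3 together (log2 change 1.13). Leaving out these tumors changed the estimate little.

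In culture Acod1 was listed at 0 in 5 libraries and at 0.04 TPM in knockdown culture 3. It was not tested there. A fall could not have been seen from such levels, and no knockdown culture exceeded 0.04 TPM. The difference between the tumor and culture effects, 1.17 on the log2 scale (SE 0.185, limma adjusted p = 0.0155), therefore restates the tumor change and is no separate evidence. Of 15381 genes, 0.754% were called for this difference, and of the enzymes only Acod1. This call held in 16 of 19 alternative settings. It was lost with a pseudocount of 0.1 (limma adjusted p = 0.238), with the replicate block and without knockdown tumors 1 and 3 (difference 1.11). Acod1 stayed far below Arg1: the ratio of Acod1 to Arg1 was 0.0220 ± 0.00176 in control tumors and 0.0515 ± 0.0125 in knockdown tumors (SD, n = 3 each, no test).

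Of 17 listed genes that make the substrate of Acod1, handle itaconate or degrade it, 15 were tested and Acod1 alone was called. The list's median log2 change was -0.02. Cs and Sdha, the citrate synthase and a subunit of the succinate dehydrogenase that itaconate inhibits, showed log2 changes of -0.04 and -0.02, neither called (limma adjusted p = 0.720 and 0.848). Clybl, which acts in the breakdown of itaconate, had a log2 change of -0.22 (limma adjusted p = 0.220). Itaconate is known to activate Nrf2, and of 9 listed Nrf2 targets and regulators, all tested by limma, 0 were called and 1 had an unadjusted p under 0.05.

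**Figure D2:**
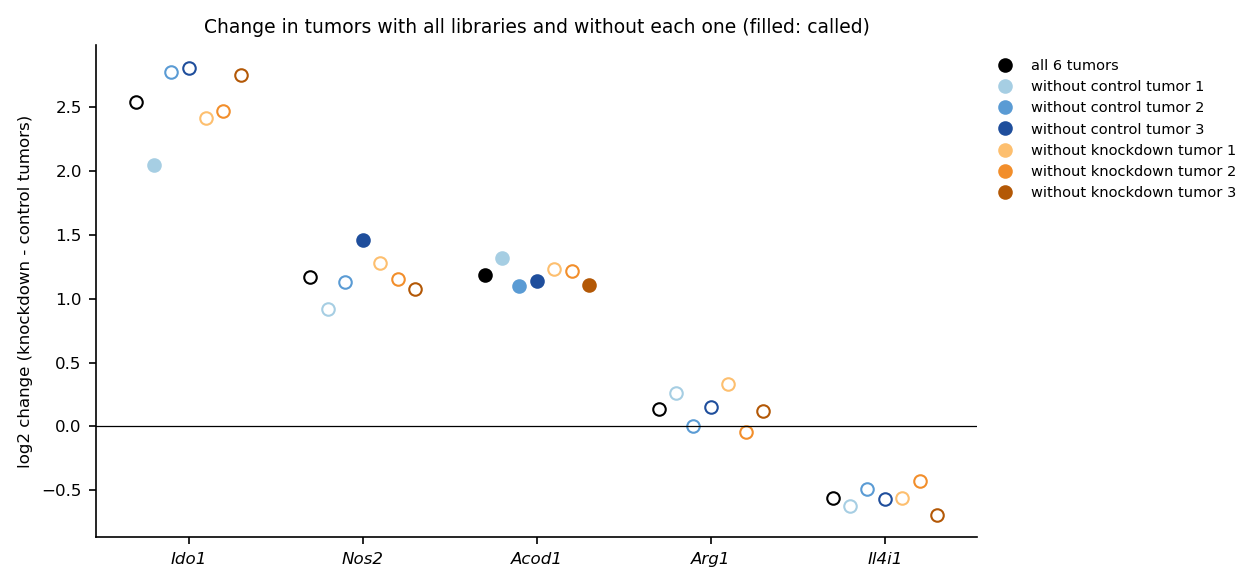
Log2 change between knockdown and control tumors for the 5 enzymes tested, with all 6 tumors (black) and without each tumor in turn (blue shades: a control tumor left out, orange shades: a knockdown tumor left out). Filled points passed limma's threshold. Ido1, Nos2 and Acod1 stayed above 0 and Il4i1 below it in each omission, and Arg1 lay about 0.

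The regulators of these enzymes were read from the same fit. Of 13 listed genes of interferon-gamma signalling, 12 were tested and 2 were called as higher, with a median log2 change of 0.21. Irf9, part of the transcription factor complex of type I interferon signalling, had 17.61, 20.78 and 21.70 TPM in the control tumors and 36.05, 36.46 and 32.39 TPM in the knockdown tumors (log2 change 0.78, limma adjusted p = 0.0167). Socs1, a feedback inhibitor of the same pathway, had 5.29, 7.17 and 5.98 TPM against 11.31, 10.63 and 10.87 TPM (log2 change 0.75, limma adjusted p = 0.0329). Both sets of values were apart, yet the Irf9 call was lost in 3 of 6 omissions of a tumor (limma adjusted p up to 0.0811) and the Socs1 call in 5 of 6 (limma adjusted p up to 0.140).

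Irf1, which acts on the Ido1 and Nos2 promoters, had 54.59, 96.43 and 88.87 TPM against 227.60, 206.42 and 155.58 TPM (log2 change 1.31, limma adjusted p = 0.0855). Ifng, the cytokine itself, had 0.33, 0.91 and 0.47 TPM against 2.61, 2.33 and 1.53 TPM (log2 change 1.01, limma adjusted p = 0.0799). For both, as for Ido1, control tumor 1 was the lowest library and knockdown tumor 1 the highest, with no overlap between groups and no call. Nos2 also had its lowest value in control tumor 1, but its highest in knockdown tumor 3. Acod1 was lowest in control tumor 2 and highest in knockdown tumor 3. Of 12 regulators of NF-kappaB and inflammatory cytokines, 12 were tested by limma, 0 were called, 1 was higher and 2 were lower at an unadjusted p under 0.05, and the median log2 change was -0.02.

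**Figure D3:**
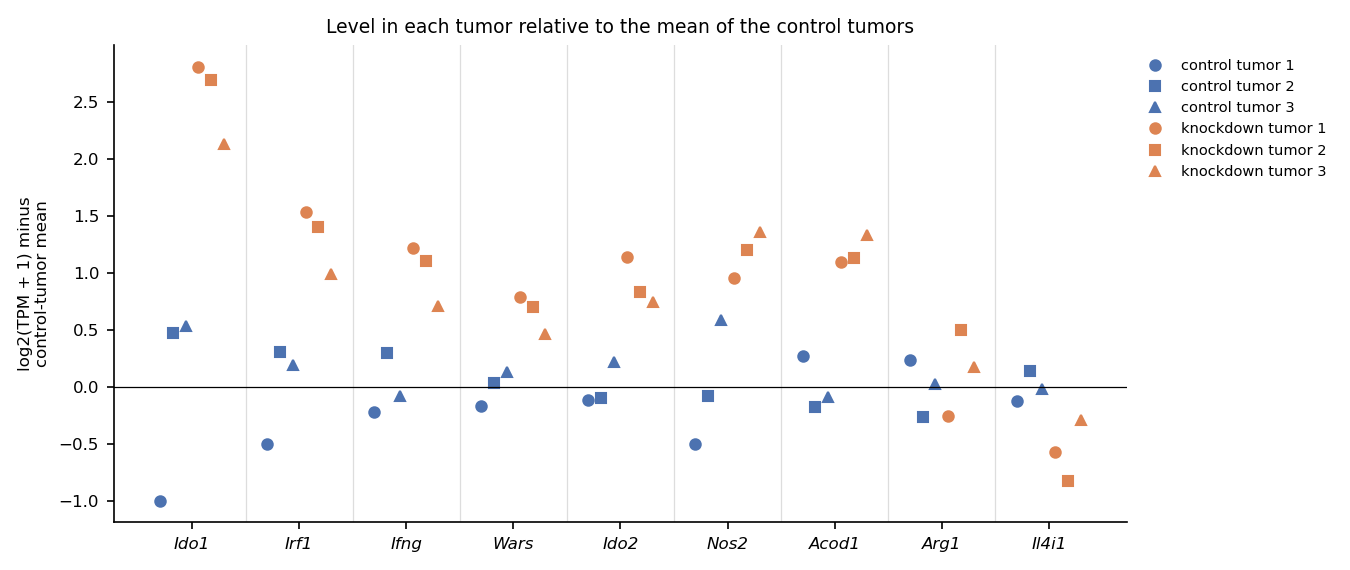
log2(TPM + 1) of each tumor minus the mean of the 3 control tumors for 5 enzymes, 2 interferon-gamma pathway genes, Wars and Ido2. Blue is control, orange knockdown, and circle, square and triangle are tumors 1, 2 and 3. Control tumor 1 is lowest and knockdown tumor 1 highest for Ido1, Irf1, Ifng, Wars and Ido2, which differs from the order for Nos2, Acod1, Arg1 and Il4i1.

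On the side of Arg1, 8 of 10 listed regulators of the IL-4 and STAT6 pathway were tested by limma, 0 were called, and 1 was higher and 1 lower at an unadjusted p under 0.05, with a median log2 change of -0.02. Il4ra and Stat6 showed log2 changes of -0.06 and -0.17, neither called (limma adjusted p = 0.688 and 0.431). Among 9 genes of alternatively activated macrophages, all tested, 1 was called: Chil3, a chitinase-like lectin, with 3.89, 3.73 and 4.28 TPM in the control tumors and 7.72, 7.36 and 6.90 TPM in the knockdown tumors (log2 change 0.75, limma adjusted p = 0.0214). That call was lost in 4 of 6 omissions of a tumor (limma adjusted p up to 0.106). The list's median log2 change was 0.01, and Mrc1, the mannose receptor, had 33.16 to 55.23 TPM in control and 42.34 to 45.99 TPM in the knockdown tumors.

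Genes whose log2(TPM + 1) followed each enzyme most closely over the 6 tumors were taken by Pearson's r among 11423 genes. The 6 tumors include both groups, so a gene that differs between the groups can score high by that alone, and no p is given. For Ido1 the first 5 were H2-T22 (r = 0.999), Ifi47 (0.999), Irgm2 (0.999), Gbp2b (0.998) and Iigp1 (0.998). H2-T22 is a nonclassical MHC class I gene and the other 4 are interferon-inducible GTPases. Gbp2b, for instance, had 3.91, 18.49 and 19.40 TPM in the control tumors and 113.73, 115.96 and 75.91 TPM in the knockdown tumors. For Nos2 they were C1s1 (0.996), Mcoln2 (0.996), Kat2b (0.994), Xdh (0.992) and C1ra (0.990), of which C1s1 and C1ra encode complement proteases. For Acod1 they were Cysltr1 (0.988), Dram2 (0.986), Nfatc2ip (0.982), Rad17 (0.981) and Igsf6 (0.980). Arg1 was followed less closely, by Bdnf (0.971), Mdfic (0.968), Atp6v1d (0.965), Rnf146 (0.965) and Csnk1g3 (0.959). For Kynu the 5 were Myo1g (0.992), Mex3a (0.989), Gpr132 (0.985), Mutyh (0.983) and C2cd3 (0.981), and for Il4i1 they were Grb10 (0.998), Plbd2 (0.996), Tnpo2 (0.996), Stam2 (0.995) and Susd3 (0.995). No gene appeared among the first 5 of more than 1 enzyme.

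Markers of cells that can carry these enzymes were summed per tumor. Of the 15 monocyte and macrophage markers, all tested, 1 was called, Ly6c2 of inflammatory monocytes (8.06, 8.4 and 12.01 TPM in the control tumors, 43.39, 28.03 and 39.07 TPM in the knockdown tumors, log2 change 1.85, limma adjusted p = 0.0139). That call was lost in 2 of 6 omissions of a tumor (limma adjusted p up to 0.0540). Of the 15, 11 had positive changes, 3 were higher and 0 lower at an unadjusted p under 0.05, and the median log2 change was 0.16. All 15 summed to 11032 to 11402 TPM in control and 11388 to 11939 TPM in knockdown tumors, which overlapped, and most of that sum was Spp1, which was also abundant in culture. The 10 of them under 1 TPM in every culture library, a subset taken after their values were seen, summed to 1321 to 1932 TPM and 1422 to 1882 TPM.

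The 13 neutrophil markers summed to 632 to 849 TPM in control and 430 to 555 TPM in knockdown tumors, lower without overlap. Their log2 changes did not follow the sum: of 9 tested, 5 were positive, the median was 0.07, and Mmp9 was called as lower. The Mmp9 call was lost in 6 of 6 omissions of a tumor (limma adjusted p 0.0508 to 0.140). The 12 dendritic cell markers summed to 91.6 to 110 TPM and 78.6 to 101 TPM, with 11 tested by limma, 0 called and 2 lower at an unadjusted p under 0.05.

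The sum of the 12 T and natural killer cell markers was higher without overlap, at 59.7 to 85.5 TPM in control and 144 to 198 TPM in knockdown tumors. All 12 were tested, and Prf1 and Gzmb were called. These calls were lost in 3 and 4 of 6 omissions of a tumor (limma adjusted p up to 0.0953 and 0.123). The 8 mast cell markers likewise did not overlap, at 48.1 to 77.9 TPM and 147 to 191 TPM, with 5 of 7 tested called. Of those 7, 6 had positive changes, and Kit had a negative one that was not called (log2 change -0.26, limma adjusted p = 0.516). Omissions of a tumor ended the call of Cpa3 and Tpsab1 in 2 of 6, of Tpsb2 in 3, of Fcer1a in 4 and of Cma1 in 5 (limma adjusted p up to 0.174).

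The 8 fibroblast markers summed to 1123 to 1518 TPM in control and 737 to 1129 TPM in knockdown tumors, which overlapped slightly, with a median log2 change of -0.45. Fap was called as lower, a call lost in 3 of 6 omissions of a tumor (limma adjusted p up to 0.0640). The 9 endothelial markers summed to 77.7 to 116 TPM and 58.0 to 83.5 TPM, and all 9 had negative changes, with a median log2 change of -0.46. By limma 0 of them were called and 4 were lower at an unadjusted p under 0.05, a level reached in either direction by 18.7% of all genes. Of these lists, no marker was at 0 in all 6 tumors. The part of any of these markers, the epithelial ones included, in the levels of Acod1, Ido1, Nos2 and Il4i1 was not tested.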

How the data were processed

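The authors deposited 1 table per sample with gene identifier, name, length and TPM to 2 decimals, per the file headers. Per the submitters' processing notes, the tools were fastp, HISAT and RSEM and the build GRCm39, without roles or versions. TPM keeps no depth, so no counting interval is given and a value of 0 can be a failed estimate. Tumor and culture tables were normalized separately, so levels across them are descriptive. Groups and replicate numbers came from sample titles.

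From the TPM, log2(TPM + 1) was tested with limma 3.58.1 in R 4.3.3 (trended, robust empirical Bayes, two-sided). Genes were tested where some group of the comparison averaged 1 TPM or more. Benjamini-Hochberg adjustment was over the genes tested in that comparison. Tumors and cultures were fitted separately on 6 libraries each, the difference on all 12 over shared identifiers. Fold changes on this scale understate changes of low genes. The procedure was tested on simulated data.

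Genes named were the 6 enzymes, St3gal3 and called genes of 12 pathway lists with up to 4 uncalled ones per list by level or role. In the arginine list Slc7a1 was named beyond that number. Per enzyme, the 5 genes with the highest r were named, among genes of at least 2 TPM without predicted names. Ido2, Cyp1a1, the genes overlapping Il4i1 and the marker genes were added after their values were seen. The enzymes and all lists were chosen with earlier results of these data known. Other settings tried were a replicate block, a pseudocount of 0.1, no filter, at least 1 TPM in 3 libraries, each library left out, median-of-ratios scaling, array weights, all 4 groups in 1 fit and, chosen after seeing the data, tumors without knockdown tumors 1 and 3. Some genes of the lists enter the counts and are not reported here by name. Coordinates of the authors' build were not used here. Promoters are from RefSeq on GRCm38.p6 and gene overlaps from GENCODE M21. Python 3.11.15 and matplotlib 3.10.9 made the figures.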

Additional observations from a re-analysis of the deposited data

Results flagged for a closer look

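The change of Acod1 in tumors exceeded that in culture by 1.17 on the log2 scale (SE 0.185, limma adjusted p = 0.0155), and was picked out as a difference between tissues under the same contrast. It is no separate evidence of a tissue-specific effect, since Acod1 was not tested in culture and the value restates the tumor change of 1.19. Acod1 had 4.42 to 6.40 TPM in control and 12.08 to 14.47 TPM in the knockdown tumors, but was listed at 0 in 5 of 6 cultures.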

How the results depend on the processing

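Directions of Ido1, Nos2, Acod1 and Il4i1 in tumors were the same in all 14 alternatives. Enzymes called in tumors, 1 of 5 as reported, were 0 with the replicate block, 2 with array weights (Acod1 and Ido1), 3 with all 4 groups in 1 fit (Acod1, Ido1 and Nos2), 0 without knockdown tumors 1 and 3, and 0 to 2 with each tumor left out. For the difference between tissues, 1 of 5 as reported, they were 0 with a pseudocount of 0.1, 0 with the replicate block, 0 without knockdown tumors 1 and 3, and 1 to 2 with each library left out. All genes called in tumors, 225 as reported, were 82 without a filter, 2 with the replicate block, 795 with array weights, 599 with all 4 groups in 1 fit, 72 without knockdown tumors 1 and 3, and 38 to 229 with each tumor left out. In culture, 4 as reported, they were 11 with a pseudocount of 0.1, 8 with the stricter filter, 8 with array weights and 7 to 15 with each library left out. For the difference, 116 as reported, they were 26 with a pseudocount of 0.1, 0 with the replicate block, 182 with median-of-ratios scaling, 259 with array weights and 67 to 164 with each library left out. The cause of these shifts was not tested. In the fit of all 4 groups the culture libraries, all at 0 for Nos2, entered the spread of every gene, Ido1 and Acod1 included.

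With each library left out, the Arg1 log2 change in tumors ran from -0.041 to 0.33, turning sign without knockdown tumor 2. The Arg1 difference ran from -0.054 to 0.32, below 0 without control tumor 2 or knockdown tumor 2. The Ido1 log2 change in culture ran from -0.10 to 0.39, below 0 without control culture 1, control culture 2 or knockdown culture 2. Under the replicate block the adjusted p of Acod1 was 0.0896 in tumors and 0.165 for the difference, that of Ido1 in tumors 0.169 and that of St3gal3 0.0768. Numbers did not pair the samples: deviations of same-numbered libraries correlated at -0.14, -0.02 and 0.05 in tumors and -0.06, -0.07 and -0.16 in culture. Without a depth, no limit can be set for the enzymes listed at 0 in culture or for Kynu.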
